A study of Mus musculus with 14 samples.

Results

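Long-term hematopoietic stem cells (LT-HSCs) are sorted from mouse bone marrow by the proteins they carry on their surface, and the RNA of 8 of these surface markers was followed here. They are Kit, Ly6a, Slamf1, Cd48, Cd34, Flt3, Procr and Ptprc, the genes of c-Kit, Sca-1, CD150, CD48, CD34, FLT3, the endothelial protein C receptor and CD45. They were chosen by name as markers that define stem cell and multipotent progenitor gates, 8 of 55450 gene identifiers, and all 8 were among the 16878 genes with enough reads to test. RNA was sequenced in 14 libraries of 5000 sorted cells each from female C57BL/6 mice. Selp high-derived cells (3 libraries) and Selp low-derived cells (3 libraries) were donor LT-HSCs recovered 16 weeks after 1000 Selp high or Selp low LT-HSCs had been given to lethally irradiated recipients of 10 to 16 weeks of age. Selp high cells (4 libraries) and Selp low cells (4 libraries) were LT-HSCs with high or low surface P-selectin (Selp), an adhesion receptor, taken from 4 mice older than 24 months and not transplanted. All 14 libraries therefore came from cells of old donors, and no group held cells of young donors or cells from an old host after transplantation.

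Kit, Ly6a, Slamf1 and Cd48 were themselves part of the gate. Every group was sorted as lineage-negative, Sca-1+, c-Kit+, CD48- and CD150+, so the cells of all 4 groups had passed the same gates for these proteins, whose levels are not part of these data. Ptprc entered in another way: after transplantation cells were also gated as CD45.2+, the donor's allele of CD45, and B220, an isoform of CD45, was one of the lineage markers in all groups. Cd34, Flt3 and Procr were not used in the sort. After transplantation cells were not gated on P-selectin. Stage, host, irradiation of the host, 16 more weeks of age and time of collection change together between the groups before and after transplantation and cannot be told apart.

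The markers read different sides of stem cell state. KIT is the receptor tyrosine kinase for stem cell factor, on which HSCs depend, and Sca-1 is a GPI-anchored protein of the LY6 family that interferons raise. CD150 and CD48 belong to the SLAM family of lymphocyte adhesion receptors, and cells that carry CD150 without CD48 hold most of the long-term repopulating activity of mouse marrow. CD34, a sialomucin, and FLT3, a cytokine receptor, are low on adult mouse LT-HSCs and appear on multipotent and lymphoid-primed progenitors. The endothelial protein C receptor, encoded by Procr, marks LT-HSCs, and CD45 is a phosphatase on nearly all white blood cells.

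Gene-assigned reads came to 23469262 to 29226370 in Selp high-derived, 22374794 to 27448409 in Selp low-derived, 25972480 to 29305598 in Selp high and 26513095 to 38216775 in Selp low libraries. Selp RNA averaged 301 ± 15.7 CPM (reads scaled to a common library size) among Selp high-derived, 269 ± 23.7 among Selp low-derived, 701 ± 73.4 among Selp high and 566 ± 96.7 CPM among Selp low libraries (SD, n = 3, 3, 4 and 4). In 4 of 4 pairs of equal number, Selp high libraries held more of it than Selp low libraries, with a log2 difference of 0.31 ± 0.12 that did not pass the adjusted test. The label of the cells was checked against 15 LT-HSC genes, 4 of them among the 8 markers: all 15 had reads in every group, and their summed level was 4403 to 5820 CPM after and 5996 to 7477 CPM before transplantation. Of the 15, 10 were called lower and 0 higher after transplantation (median -0.38), beside 14.6% of all genes called lower. Selp low-derived replicate 2, Selp high replicate 4 and Selp low replicate 4 stood apart in markers of other cells. Their 12 neutrophil genes summed to 12784, 20985 and 15478 CPM, against 298 to 6462 CPM in the other 11 libraries, and their 9 erythroid genes to 1888, 1968 and 2431 CPM, against 124 to 1107 CPM.

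Throughout, a level is CPM after TMM scaling, and a difference is the log2 ratio fitted by edgeR with its standard error (SE). A gene counts as called where the p of edgeR's quasi-likelihood test, adjusted by Benjamini-Hochberg over all 16878 genes, was under 0.05. Exact p-values are from two-sided exact permutation tests of log2 CPM over libraries. They are not adjusted and cover 40 tests of the 8 markers. Tests of all libraries after against all before transplantation took the 8 before it as separate, although those of equal number varied together. The p-values of these tests, by edgeR and exact, may therefore be too small.

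After transplantation, Slamf1 was lower and Cd34 higher, each by about 1 on the log2 scale, and the libraries of the 2 stages did not overlap for either gene. Flt3 was also higher, and Procr and Ly6a were lower by less. Kit, Ptprc and Cd48 were not called. So 5 of the 8 markers were called with both inputs averaged, 2 higher and 3 lower, beside 27.4% of all genes tested. By input, 3 were called in Selp high-derived against Selp high cells (Slamf1, Cd34 and Flt3), beside 15.2% of all genes, and 2 in Selp low-derived against Selp low cells (Slamf1 and Cd34), beside 11.5%. Without both libraries numbered 4 before transplantation these counts were 5 and 5, beside 15.9% and 18.1% of all genes. The count of 2 was 1 without Selp low-derived replicate 1 but 4 without Selp low replicate 4, beside 4.58% and 16.3% of all genes. The count of 5 with the inputs averaged was 3, beside 21.1 to 25.7% of all genes, without any 1 of Selp high-derived replicates 2 and 3, Selp low-derived replicate 1, Selp high replicate 1 and Selp low replicate 1. The plot of the levels in each library shows these values.

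**Figure D1:**
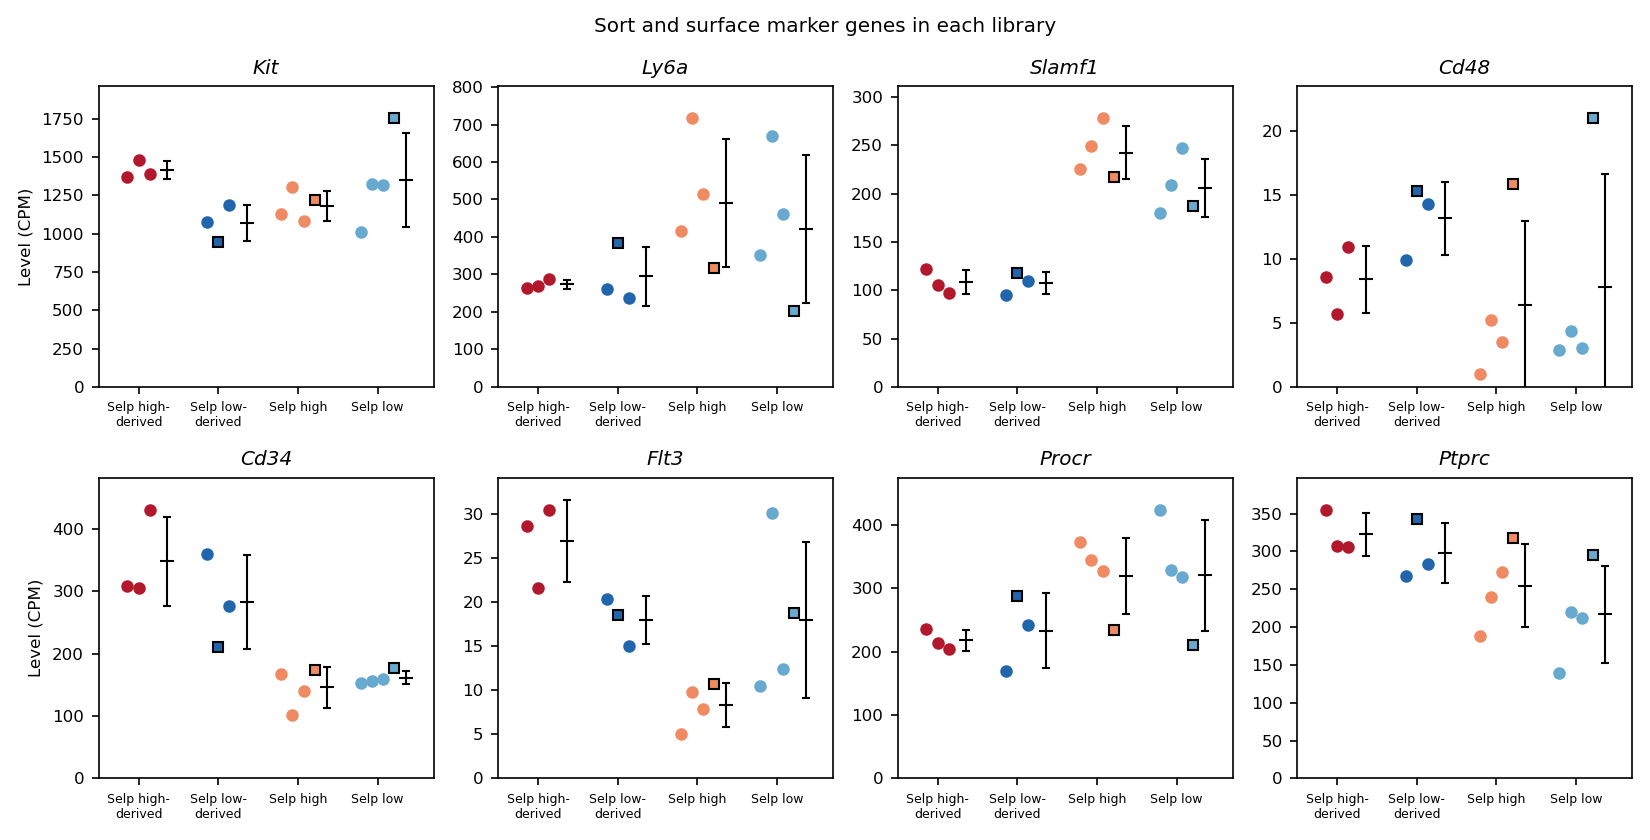
Level in CPM (vertical axes from 0) of each marker gene in each of the 14 libraries, with the mean ± SD of each group to the right of its points. Squares with a black edge are Selp low-derived replicate 2, Selp high replicate 4 and Selp low replicate 4, which had the most neutrophil and erythroid RNA; all 6 libraries after transplantation lie below all 8 before it for Slamf1 and above them for Cd34.

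Slamf1 (ENSMUSG00000015316.11, GRCm38 chr1:171767127-171801184, plus strand) encodes CD150, the receptor that the gate required on every cell. It had 122, 106 and 97.6 CPM in Selp high-derived and 95.0, 118 and 109 CPM in Selp low-derived libraries, against 226, 249, 278 and 217 CPM in Selp high and 180.3, 209, 247 and 187 CPM in Selp low libraries. The highest library after transplantation, Selp high-derived replicate 1, lay below the lowest before it, Selp low replicate 1. The mean was 108 ± 10.8 CPM after (SD, n = 6) and 224 ± 33.1 CPM before transplantation (SD, n = 8), a difference of -1.05 ± 0.10 on the log2 scale or 2.07-fold lower (adjusted p = 6.87e-06), and the exact p was 0.000333, the smallest that 6 against 8 libraries can give. The difference was -1.16 ± 0.14 in Selp high-derived against Selp high cells (adjusted p = 0.000148) and -0.94 ± 0.14 in Selp low-derived against Selp low cells (adjusted p = 0.00108). In bulk RNA, fewer cells with a transcript and less of it per cell cannot be told apart, here and in every result that follows. The depth was not limiting, since the lowest library held 2518 Slamf1 reads.

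The window around the Slamf1 transcription start, 250 bases before it and 50 after, is shown because Slamf1 RNA fell the most of the 8 markers. It is chr1:171766882-171767181 on the plus strand (RefSeq, GRCm38.p6), and the capitals mark its only match, at base +28, among 6 short motifs searched on both strands.
Slamf1: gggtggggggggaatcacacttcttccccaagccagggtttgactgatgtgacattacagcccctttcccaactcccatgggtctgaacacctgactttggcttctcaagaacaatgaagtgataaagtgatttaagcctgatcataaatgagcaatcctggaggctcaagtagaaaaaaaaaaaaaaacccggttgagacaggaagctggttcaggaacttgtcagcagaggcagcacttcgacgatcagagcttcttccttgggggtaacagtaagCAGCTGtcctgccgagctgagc
The motifs were AGATAA for GATA factors, TGTGGT for RUNX factors, CCGGAAG for ETS factors, TGANTCA for AP-1, CAGCTG for an E-box and CACGTG for the MYC E-box, and no 2 matches overlapped in the windows shown. The match in Slamf1 is the CAGCTG E-box, which 16.3% of the 32851 promoter windows in the table hold.

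Slamf1 lies among its relatives on chromosome 1. Cd48 starts 85.1 kb before it and Cd84, another self-binding SLAM receptor, 72.6 kb after it. Cd84 was lower after transplantation by much less, at 111 ± 9.60 CPM after and 136 ± 10.7 CPM before (SD, n = 6 and 8), a difference of -0.29 ± 0.07 (adjusted p = 0.00444). Ly9, another receptor of the cluster, was at 23.8 ± 6.64 CPM after and 18.5 ± 3.37 CPM before transplantation and was not called (0.35 ± 0.16, adjusted p = 0.123). Of 13 SLAM family and adaptor genes, 11 were tested, and 3 were called lower (Slamf1, Cd84 and Slamf9) and 0 higher, beside 14.6% of all genes called lower. The median difference of the 11 was -0.22, against -0.01 over all genes. Slamf9 rested on 356 reads over all 14 libraries (-1.76 ± 0.62, adjusted p = 0.0492).

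**Figure D2:**
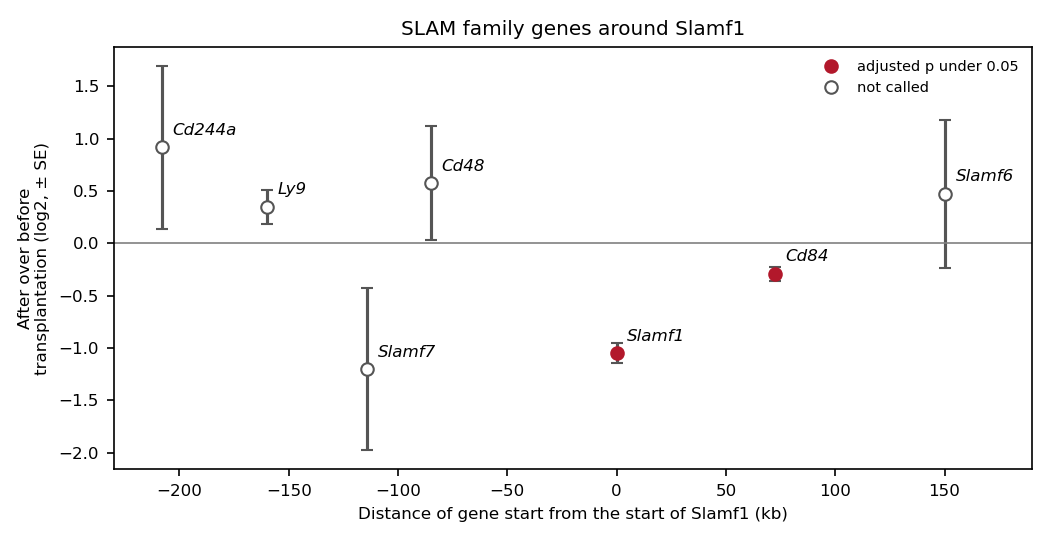
Difference in log2 after over before transplantation (± SE, vertical axis) for the SLAM family genes nearest Slamf1, by the distance of their start from that of Slamf1 in kb (horizontal axis). Filled points were called and open ones were not; Slamf1 at -1.05 and Cd84 at -0.29 are the called genes, and Cd48, 85.1 kb away, is at 0.58 with an SE of 0.54.

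Cd48 (ENSMUSG00000015355.13, GRCm38 chr1:171682009-171705258, plus strand) encodes the GPI-anchored SLAM protein that the gate excluded. Its RNA was low in all libraries, at 8.60, 5.67 and 10.9 CPM in Selp high-derived and 9.92, 15.3 and 14.2 CPM in Selp low-derived cells, against 1.03, 5.20, 3.48 and 15.8 CPM in Selp high and 2.87, 4.36, 3.01 and 21.0 CPM in Selp low cells. The 2 highest libraries before transplantation were those numbered 4, and the others before it ran from 1.03 to 5.20 CPM. The mean was 10.8 ± 3.57 CPM after and 7.10 ± 7.22 CPM before transplantation (SD, n = 6 and 8), which was not called (0.58 ± 0.54, adjusted p = 0.464). Without both libraries numbered 4 the difference was 1.66 ± 0.32 and was called (adjusted p = 0.00198).

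Cd48 moved with marker RNA of some other blood cells from library to library. Over the 14 libraries, the deviations of Cd48 from its group means had a Pearson r of 0.94 with those of the summed 9 monocyte and macrophage markers, values that share their library and its depth. That sum was 88.7 to 140.0 CPM in Selp high-derived, 141 to 233 CPM in Selp low-derived, 20.6 to 162 CPM in Selp high and 49.2 to 365 CPM in Selp low cells. None of the 9 was at 0 throughout a group, and 1 of them was called higher after transplantation, beside 12.9% of all genes. The 12 neutrophil markers summed to 374 to 2201 CPM in Selp high-derived, 1529 to 12784 CPM in Selp low-derived, 298 to 20985 CPM in Selp high and 2174 to 15478 CPM in Selp low cells. None of the 12 was at 0 throughout a group. Between stages their median difference was -1.28, and 0 of 12 were called, beside 27.4% of all genes. The r of Cd48 was 0.83 with the summed multipotent progenitor markers, Cd48 among them, and 0.77 with the neutrophil sum. It was 0.54 with the summed B cell markers and 0.27 with the summed T and NK cell markers. The part of any of these cells in the Cd48 level was not tested.

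**Figure D3:**
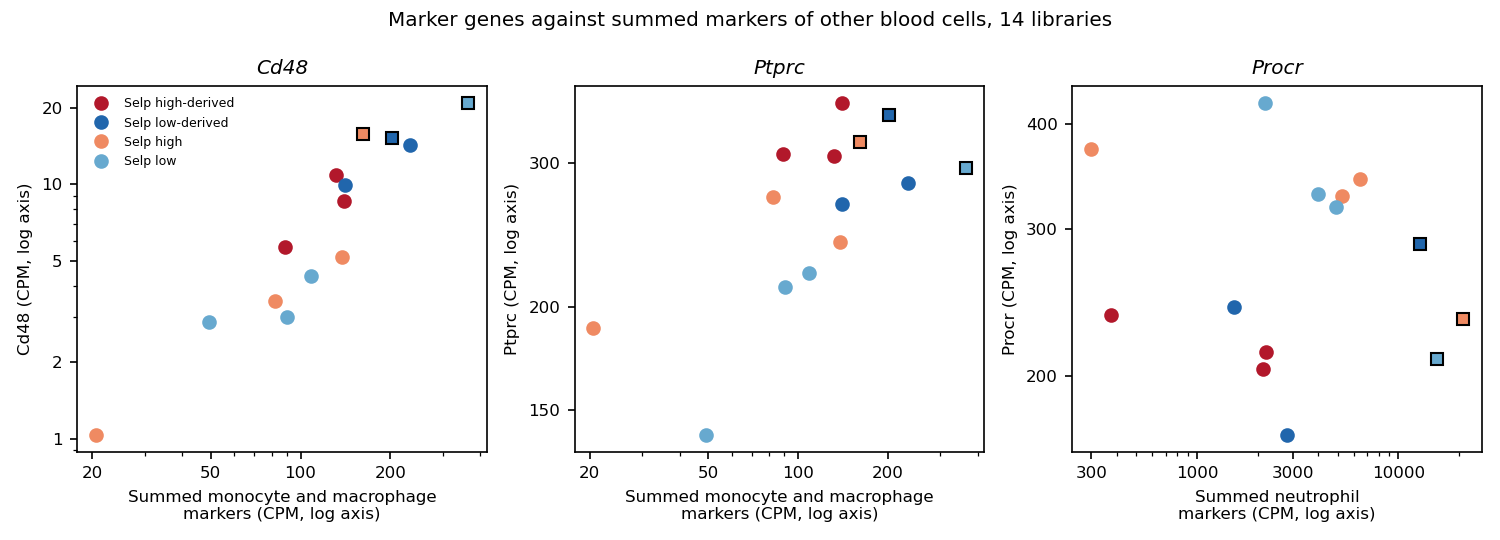
Levels of Cd48 and Ptprc against the summed monocyte and macrophage markers, and of Procr against the summed neutrophil markers, in CPM on log axes, with 1 point per library. Squares with a black edge are Selp low-derived replicate 2, Selp high replicate 4 and Selp low replicate 4; Cd48 runs from 1.03 CPM where the monocyte sum is 20.6 CPM to 21.0 CPM where it is 365 CPM.

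Cd34 (ENSMUSG00000016494.9, GRCm38 chr1:194938819-194961279, plus strand) encodes the sialomucin that is scarce on adult LT-HSCs. It had 309, 305 and 431 CPM in Selp high-derived and 360.1, 211 and 276 CPM in Selp low-derived libraries, against 167, 102, 140.1 and 174 CPM in Selp high and 153, 157, 159 and 177 CPM in Selp low libraries. The lowest library after transplantation, Selp low-derived replicate 2, lay above the highest before it, Selp low replicate 4. The mean was 315 ± 74.6 CPM after and 154 ± 24.1 CPM before transplantation (SD, n = 6 and 8), 2.04-fold higher (1.03 ± 0.14, adjusted p = 0.000113, exact p = 0.000333). Cd34 was called for both inputs, at 1.25 ± 0.20 in Selp high-derived against Selp high cells (adjusted p = 0.000846) and 0.81 ± 0.20 in Selp low-derived against Selp low cells (adjusted p = 0.0172). The call in Selp low-derived cells was lost without Selp low-derived replicate 1, where the difference was 0.59 (adjusted p = 0.109). Cd34 shares exon bases with the antisense gene Gm16897, and the counts do not separate the strands.

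Slamf1 and Cd34 were the only markers of the 8 whose stages did not overlap over all 14 libraries, and they parted in opposite directions. Among all genes 9.75% did not overlap, 4.28% higher and 5.47% lower. As a ratio within a library, which scaling cannot change, there were 1.79 to 4.41 Cd34 reads per Slamf1 read after transplantation (median 2.71) and 0.410 to 0.947 before it (median 0.745). The Cd34 window, printed to set it beside that of Slamf1, is chr1:194938571-194938870 on the plus strand (RefSeq, GRCm38.p6) and holds none of the 6 motifs, so it carries no capitals.
Cd34: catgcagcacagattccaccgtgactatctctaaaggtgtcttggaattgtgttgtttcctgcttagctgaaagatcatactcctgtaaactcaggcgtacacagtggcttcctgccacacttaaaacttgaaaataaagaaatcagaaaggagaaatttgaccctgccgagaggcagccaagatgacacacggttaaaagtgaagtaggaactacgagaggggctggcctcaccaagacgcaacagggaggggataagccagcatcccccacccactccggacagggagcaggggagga
The GC content of the Slamf1 window is 49.0%. Of the sialomucin family, Podxl, which encodes podocalyxin, was at 38.7 ± 7.98 CPM after and 49.8 ± 8.98 CPM before transplantation and was not called (-0.36 ± 0.15, adjusted p = 0.0805). Crkl, the gene of an adaptor that binds CD34, was at 120.4 ± 15.8 CPM after and 127 ± 13 CPM before and was not called either (adjusted p = 0.593). Cd34 was thus the 1 gene called of the 3 tested in its list of 4, beside 27.4% of all genes. Without Selp low-derived replicate 3 or without Selp low replicate 2, 2 were called, beside 23.7% and 24.1% of all genes.

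Flt3 (ENSMUSG00000042817.15, GRCm38 chr5:147330741-147400489, minus strand) encodes the receptor for FLT3 ligand, which is gained on multipotent progenitors. It had 28.6, 21.6 and 30.5 CPM in Selp high-derived and 20.4, 18.6 and 15.0 CPM in Selp low-derived libraries, against 5.05, 9.79, 7.81 and 10.7 CPM in Selp high and 10.5, 30.1, 12.5 and 18.8 CPM in Selp low libraries. Selp high cells held the 3 lowest levels, and Selp low replicate 2 was higher than all libraries after transplantation but 1. The mean was 22.4 ± 5.98 CPM after and 13.1 ± 7.91 CPM before transplantation (SD, n = 6 and 8), 1.80-fold higher (0.85 ± 0.23, adjusted p = 0.0142, exact p = 0.0223).

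By input, Flt3 was called in the cells from Selp high donor cells and not in the others. In Selp high-derived cells it was 3.23-fold above Selp high cells (1.69 ± 0.33, adjusted p = 0.00334), with no overlap between the groups. In Selp low-derived against Selp low cells the difference was -0.00027 ± 0.33 (adjusted p = 1.00), and its sign changed with the setting. The test of the difference between these differences gave 1.69 ± 0.47 with an unadjusted p of 0.00272, which was not called over all genes (adjusted p = 0.879). The Flt3 window is shown because this gene differed most between the inputs, and it lies at chr5:147400440-147400739 on the minus strand (RefSeq, GRCm38.p6), printed in the direction of the gene with the MYC E-box at base +3 in capitals.
Flt3: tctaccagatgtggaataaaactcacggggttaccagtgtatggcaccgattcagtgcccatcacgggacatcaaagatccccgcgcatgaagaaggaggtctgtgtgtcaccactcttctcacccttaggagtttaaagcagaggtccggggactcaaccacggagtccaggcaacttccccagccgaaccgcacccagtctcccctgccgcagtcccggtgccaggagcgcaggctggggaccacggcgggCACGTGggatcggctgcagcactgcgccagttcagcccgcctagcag
That motif is in 7.2% of all windows, and the GC content of this one is 61.0%. The 11 multipotent progenitor markers, among them Flt3, Cd34 and Cd48, summed to 1071 to 1297 CPM in Selp high-derived, 1067 to 1191 CPM in Selp low-derived, 459 to 796 CPM in Selp high and 676 to 1049 CPM in Selp low libraries. Of these 11, 4 were called higher and 1 lower after transplantation, beside 12.9% and 14.6% of all genes, and Flt3 and Cd34 were themselves among the 4. None of the 11 was at 0 throughout a group, and the part of multipotent progenitors in the Flt3 and Cd34 levels was not tested.

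The ligand and relays of FLT3 gave a mixed picture. All 9 genes of the list were tested, and 4 were called higher (Flt3, Cbl, Ptpn11 and Grb2) and 1 lower (Gab1, an adaptor), beside 12.9% and 14.6% of all genes. Their median difference was 0.12, against -0.01 over all genes. Flt3l, the ligand, was at 2.82 ± 0.75 CPM after and 3.22 ± 0.85 CPM before transplantation and was not called (adjusted p = 0.561). Stat5a and Stat5b, which carry the signal to the nucleus, were among the most abundant of the list and were not called, at 0.01 ± 0.08 and 0.12 ± 0.10. Gab1 was at 38.6 ± 6.80 CPM after and 51.7 ± 5.59 CPM before transplantation (-0.43 ± 0.11, adjusted p = 0.00869).

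**Figure D4:**
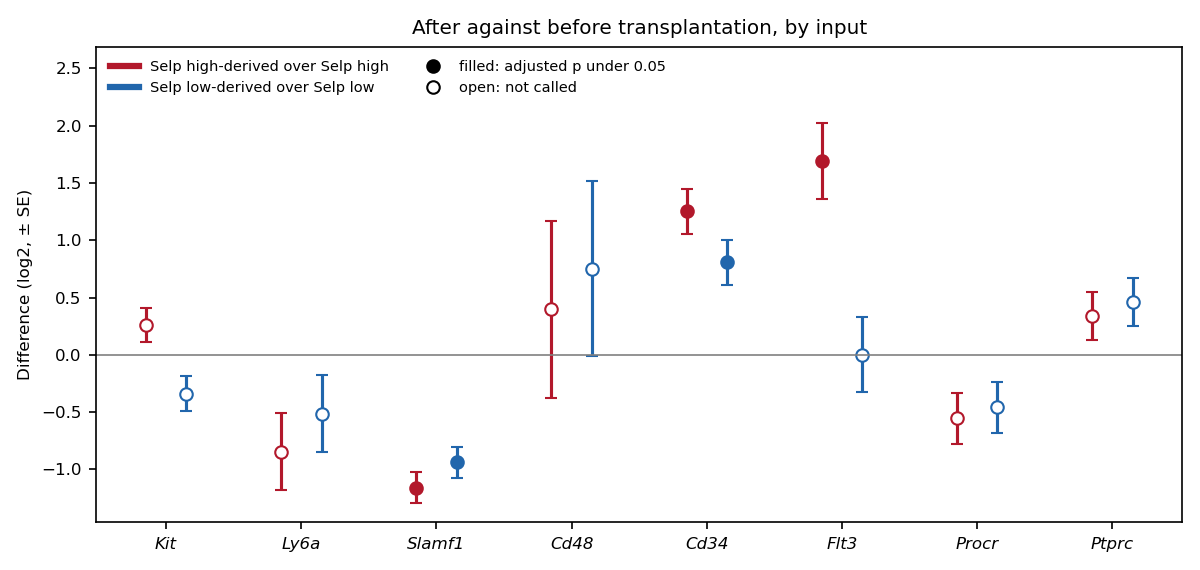
Difference in log2 (± SE) after over before transplantation for each marker gene, in Selp high-derived over Selp high cells and in Selp low-derived over Selp low cells. Filled points were called. Slamf1 and Cd34 were called for both inputs. Flt3 was called for Selp high-derived cells, at 1.69, and was not called for Selp low-derived cells, at -0.00027.

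Kit (ENSMUSG00000005672.12, GRCm38 chr5:75574916-75656722, plus strand) held the highest CPM of the 8 and was not called between stages. It had 1373, 1480.2 and 1392 CPM in Selp high-derived and 1075, 947 and 1186 CPM in Selp low-derived libraries, against 1126, 1303, 1086 and 1218 CPM in Selp high and 1011, 1326, 1318 and 1755 CPM in Selp low libraries. The highest of all was Selp low replicate 4. The mean was 1242 ± 207 CPM after and 1268 ± 229 CPM before transplantation (SD, n = 6 and 8), a difference of -0.04 ± 0.11 (adjusted p = 0.812) whose sign changed without Selp low replicate 4 (0.035). By input, the difference was 0.26 ± 0.15 in Selp high-derived against Selp high cells (adjusted p = 0.273), where all libraries of Selp high-derived cells lay above all of Selp high cells, as for 14.5% of all genes. It was -0.34 ± 0.15 in Selp low-derived against Selp low cells (adjusted p = 0.164), and was called without Selp low replicate 1 (-0.46, adjusted p = 0.0489).

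Kit was listed with genes that relay or limit its signal. All 19 genes of the list were tested, and 5 were called higher and 2 lower, beside 12.9% and 14.6% of all genes. Ptpn11, the gene of the phosphatase SHP-2, was at 74.5 ± 8.87 CPM after and 48.0 ± 5.55 CPM before transplantation (SD, n = 6 and 8; 0.63 ± 0.08, adjusted p = 9.38e-05). Cbl and Cblb, ubiquitin ligases that remove activated KIT, were higher by 0.94 ± 0.15 (adjusted p = 0.000382) and 0.53 ± 0.10 (adjusted p = 0.00179). Grb2 and Dok2, genes of adaptors, were higher by 0.32 ± 0.10 and 0.37 ± 0.13, while Dok1, another adaptor, was lower by a difference of -0.66 ± 0.09 (adjusted p = 0.000162) and Pik3r1 by -0.36 ± 0.11. Ptpn6, the gene of SHP-1 and after Kit the most abundant of the list, was not called (393 ± 20.4 CPM after, 374 ± 54.2 CPM before, adjusted p = 0.447). The median difference of the list was 0.12. Ptpn11, Cbl and Grb2 are also in the FLT3 list, so the counts of these lists are not separate.

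Ly6a (ENSMUSG00000075602.10, GRCm38 chr15:74994877-74998031, minus strand) encodes Sca-1. It had 264, 268 and 288 CPM in Selp high-derived and 261, 385 and 238 CPM in Selp low-derived libraries, against 416, 717, 514 and 318 CPM in Selp high and 352, 669, 461 and 201 CPM in Selp low libraries. Before transplantation both libraries numbered 2 were highest and both numbered 4 lowest, and Selp low replicate 4 lay below all libraries after it. The mean was 284 ± 51.9 CPM after and 456 ± 174 CPM before transplantation (SD, n = 6 and 8), 1.60-fold lower (-0.68 ± 0.24, adjusted p = 0.0464, exact p = 0.0430). The call was close to the threshold: it was lost without any 1 of 11 of the 14 libraries, at adjusted p of 0.0502 to 0.104 and differences of -0.72 to -0.52, the exceptions being the 3 libraries that stood apart. Without both libraries numbered 4 it was -0.88 ± 0.18 (adjusted p = 0.00255).

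With the inputs averaged, all 8 LY6 genes tested, Ly6a included, had negative differences. In Selp low-derived against Selp low cells, 2 of the 8 were positive. Besides Ly6a, 7 were tested, and 2 were called lower and 0 higher, beside 14.6% of all genes called lower. With Ly6a, 3 of 8 were called and the median was -0.87, against -0.01 over all genes. The count of 3 was 1 without any 1 of Selp high-derived replicates 1 and 2, Selp low-derived replicates 1 and 3, Selp high replicate 2 and Selp low replicates 2 and 3, and 2 without any other library. With 1 library left out, 21.1 to 30% of all genes were called. Ly6e, the most abundant of them, was at 1441 ± 107 CPM after and 2397 ± 447 CPM before transplantation (SD, n = 6 and 8; -0.73 ± 0.12, adjusted p = 0.000535). Ly6i rested on 233 reads in all (-2.72 ± 0.94, adjusted p = 0.0437), and Gpihbp1 and Ly6c1, not called, on 67 and 315. Ly6c2 and Ly6g, not called either, ran from 5.62 to 228 CPM and from 0.918 to 54.9 CPM before transplantation. LY6 genes are close copies of each other. Multimapping reads were not in the gene counts, so reads shared by these copies are missing from their levels, by an unknown amount.

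Procr (ENSMUSG00000027611.12, GRCm38 chr2:155751117-155755471, plus strand) encodes the receptor that presents protein C to thrombin for activation. It had 236, 214 and 204 CPM in Selp high-derived and 170.2, 287 and 242 CPM in Selp low-derived libraries, against 374, 344, 328 and 234 CPM in Selp high and 424, 329.6, 318 and 209.7 CPM in Selp low libraries. The libraries numbered 4 again lay among those after transplantation, and the other 6 before it ran from 318 to 424 CPM. The mean was 226 ± 39.6 CPM after and 320.2 ± 69.6 CPM before transplantation (SD, n = 6 and 8), 1.42-fold lower (-0.51 ± 0.16, adjusted p = 0.0285, exact p = 0.0143). It was not called for either input alone, at -0.55 ± 0.22 for Selp high-derived (adjusted p = 0.117) and -0.46 ± 0.22 for Selp low-derived cells (adjusted p = 0.202). The averaged call was lost without Selp high-derived replicate 2 or 3, Selp low-derived replicate 1, Selp high replicate 1 or Selp low replicate 1 (differences of -0.51 to -0.42, adjusted p of 0.0524 to 0.0753). Without both libraries numbered 4 it was -0.65 ± 0.12 (adjusted p = 0.00155).

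Procr is also a gene of endothelial cells. The 7 endothelial markers summed to 343 to 590.1 CPM in Selp high-derived, 370.4 to 666 CPM in Selp low-derived, 659.6 to 1004 CPM in Selp high and 748 to 892 CPM in Selp low libraries. Of the 6 tested 3 were called lower and 0 higher after transplantation, beside 14.6% and 12.9% of all genes. Cdh5, the gene of VE-cadherin, was at 0 throughout the Selp high-derived libraries, while none of the 7 was at 0 throughout the Selp low-derived ones. Endothelial cells lack CD45, and only the sort after transplantation had a CD45.2+ gate. Within the groups, deviations of Procr had an r of 0.24 with those of the endothelial sum. The part of endothelial cells, and of the CD45.2+ gate, in the Procr level was not tested.

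The Procr window is shown because it holds the AP-1 motif, the rarest after the MYC E-box of the 6 searched. It is chr2:155750967-155751266 on the plus strand (RefSeq, GRCm38.p6), with TGACTCA at base -154 and the CAGCTG E-box at base -34 in capitals.
Procr: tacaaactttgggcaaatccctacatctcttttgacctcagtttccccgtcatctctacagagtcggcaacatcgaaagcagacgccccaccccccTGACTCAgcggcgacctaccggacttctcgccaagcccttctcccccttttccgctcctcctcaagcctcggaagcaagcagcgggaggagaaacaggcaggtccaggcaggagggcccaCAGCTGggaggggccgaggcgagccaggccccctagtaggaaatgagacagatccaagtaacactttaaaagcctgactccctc
The AP-1 motif is in 7.8% of all windows, and the GC content here is 58.3%. Of the 8 markers 7 had a window in the table, Kit and Ptprc with 2 each, and Ly6a had none. The windows of Kit hold no match, that of Cd48 a RUNX and an ETS motif, and 1 of those of Ptprc a GATA motif and a CAGCTG E-box. GATA is in 11.2%, RUNX in 16.8% and ETS in 8.9% of all windows.

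Besides Procr, 6 genes that act with the protein C receptor were tested, and 2 were called lower and 1 higher, beside 14.6% and 12.9% of all genes. With Procr the median was -0.32. Thbd, the gene of thrombomodulin, was at 16.8 ± 4.55 CPM after and 27.6 ± 3.73 CPM before transplantation (-0.72 ± 0.15, adjusted p = 0.00318). Pros1, which encodes the cofactor protein S, was at 50.5 ± 8.22 CPM after and 85.5 ± 17.3 CPM before (-0.75 ± 0.12, adjusted p = 0.000335). F2r, the gene of the thrombin receptor PAR1, was the one called higher, at 408 ± 55.5 CPM after and 261 ± 58.8 CPM before (0.64 ± 0.14, adjusted p = 0.00310). Proc, the gene of protein C, had 1 read in all libraries together.

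Ptprc (ENSMUSG00000026395.16, GRCm38 chr1:138062861-138175708, minus strand) encodes CD45, and its counts sum all isoforms. It had 355, 307 and 305 CPM in Selp high-derived and 268, 343 and 284 CPM in Selp low-derived libraries, against 188, 240.0, 273 and 318 CPM in Selp high and 139.7, 220.0, 211 and 296 CPM in Selp low libraries. The library numbered 4 was the highest of both cell groups before transplantation. The mean was 310.3 ± 33.7 CPM after and 236 ± 58.7 CPM before transplantation (SD, n = 6 and 8), a difference of 0.40 ± 0.15 that missed the threshold (adjusted p = 0.0609, exact p = 0.0206). It was called without Selp low replicate 4 (0.49, adjusted p = 0.0136), without Selp high replicate 4 (0.46, adjusted p = 0.0334) and without both (0.56, adjusted p = 0.00557). Its deviations had an r of 0.85 with those of the monocyte and macrophage sum given for Cd48, whose part was not tested.

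CD45 removes phosphate from SRC family kinases. Of 11 genes listed 10 were tested, Ptprc included, and 2 were called higher and 1 lower (median 0.23), a share near the 27.4% of all genes called. The count was 6 without Selp low replicate 4, beside 30.0% of all genes. Fyn was at 141 ± 13.9 CPM after and 102 ± 10.1 CPM before transplantation (0.46 ± 0.07, adjusted p = 0.000291), and Lck at 10.3 ± 0.32 CPM after and 15.1 ± 2.47 CPM before (-0.55 ± 0.13, adjusted p = 0.00543). Lgals1, the gene of galectin-1, which binds CD45, was at 34.5 ± 5.89 CPM after and 12.8 ± 7.10 CPM before (1.44 ± 0.30, adjusted p = 0.00285). Jak1, the most abundant of the list, was at 827 ± 55.1 CPM after and 816 ± 78.7 CPM before and was not called (adjusted p = 0.877). Of the 8 genes of the lineage antibodies, Ptprc, Cd3e, Cd3d, Cd3g, Ly6g, Ly6c1, Ly6c2 and Itgam, 0 were called by edgeR in either direction. Without Selp high replicate 4 or without Selp low replicate 4, 1 was called, beside 27.6% and 30% of all genes. The most abundant of the 8 after Ptprc was Ly6c2, at 47.9 ± 33.3 CPM after and 80.5 ± 87.7 CPM before transplantation (-1.01 ± 0.65, adjusted p = 0.269).

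The genes of other surface and reporter markers used to gate HSCs and progenitors included 12 called lower and 2 called higher after transplantation. All 32 of the list were tested, and these counts stand beside 14.6% and 12.9% of all genes, with a median of -0.40 against -0.01. Itgb3, the gene of integrin beta 3, was at 51.2 ± 10.9 CPM after and 331 ± 59.1 CPM before transplantation (SD, n = 6 and 8; -2.72 ± 0.12, adjusted p = 1.98e-08). Cd38, an ectoenzyme on mouse LT-HSCs, was at 36.5 ± 11.4 CPM after and 98.6 ± 24.6 CPM before (-1.40 ± 0.18, adjusted p = 6.98e-05). Alcam, an adhesion receptor, was at 38.8 ± 14.3 CPM after and 89.6 ± 28.0 CPM before (-1.21 ± 0.22, adjusted p = 0.00100), and Ctnnal1, the gene behind an HSC reporter, at 53.0 ± 11.2 CPM after and 93.1 ± 13.3 CPM before (-0.81 ± 0.14, adjusted p = 0.000865). Cd81, a tetraspanin, was at 589.8 ± 53.3 CPM after and 787 ± 63.7 CPM before (-0.42 ± 0.08, adjusted p = 0.00116). Gprc5c, Hoxb5, Jam3, Cd9, Esam and Eng were among the other genes called lower, and those called higher were Cd93 and Thy1, the last of them on 227 reads in all.

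The order of the markers changed at the middle and not at the ends. Per kilobase of merged exons, the order after transplantation was Ly6a (236 ± 43.1 CPM per kb), Kit (139 ± 23.3), Procr (111 ± 19.5), Cd34 (43.3 ± 10.2), Slamf1 (17.5 ± 1.76), Ptprc (16.9 ± 1.84), Cd48 (9.06 ± 3.0) and Flt3 (3.63 ± 0.97; SD, n = 6). Ranges of the libraries overlapped between the neighbours Kit and Procr, Slamf1 and Ptprc, and Cd48 and Flt3. Before transplantation the order was Ly6a (378 ± 145 CPM per kb), Procr (158 ± 34.3), Kit (142 ± 25.7), Slamf1 (36.4 ± 5.38), Cd34 (21.1 ± 3.30), Ptprc (12.9 ± 3.20), Cd48 (5.97 ± 6.07) and Flt3 (2.13 ± 1.28; SD, n = 8). There, only Kit and Slamf1, and Slamf1 and Cd34, were neighbours whose ranges did not overlap. Per kilobase of merged exons, Cd34 thus stood above Slamf1 after transplantation and below it before. With the length of the longest transcript, 6 of the 8 kept their rank at each stage: Slamf1 and Ptprc changed places after, and Procr and Kit before transplantation. By that length Slamf1 and Cd34 were nearly level before transplantation, at means of 50.7 and 50.2 CPM per kb, so their order there depends on the length used.

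Between Selp high and Selp low cells before transplantation, 0 of the 8 markers were called by edgeR, beside 0% of the 16878 genes (863 genes had an unadjusted p under 0.05, and DESeq2 called 11 and limma voom 0). No exact p under 0.0286 can be had from 4 against 4 libraries, or under 0.125 from 4 pairs. Selp high and Selp low libraries with the same number varied together, with r of 0.29 to 0.53 across genes, and are read as pairs, although the labels do not tie a number to a mouse. With the number as a block, edgeR called 2 of 15426 genes, none of them among the 8, and 2243 had an unadjusted p under 0.05. Slamf1, Ly6a and Ptprc had higher levels in the Selp high library of all 4 pairs, with fitted differences of 0.24 ± 0.12, 0.22 ± 0.31 and 0.23 ± 0.20. Of all genes, 10.9% were higher in all 4 pairs.

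Flt3 stood at the other side. Its level was lower in the Selp high library of all 4 pairs, at 5.05 CPM in Selp high against 10.5 CPM in Selp low cells of pair 1 and 9.79 CPM in Selp high against 30.1 CPM in Selp low cells of pair 2. It was at 7.81 CPM in Selp high against 12.5 CPM in Selp low cells of pair 3 and 10.7 CPM in Selp high against 18.8 CPM in Selp low cells of pair 4. Of all genes, 12.2% were lower in all 4. The mean of Selp high cells was 8.33 ± 2.49 CPM, against 18.0 ± 8.83 CPM for Selp low cells (SD, n = 4 each). The difference of -1.11 ± 0.31 had an unadjusted p of 0.00287 and did not pass the adjustment (adjusted p = 0.957, exact p = 0.0571). Kit was higher in the Selp high library of 1 pair (-0.19 ± 0.14), Cd34 in 1 (-0.14 ± 0.18), Cd48 in 2 (-0.29 ± 0.72) and Procr in 3 (-0.0022 ± 0.20).

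After transplantation 0 of the 8 were called between Selp high-derived and Selp low-derived cells by edgeR, beside 0% of all genes (765 genes had an unadjusted p under 0.05, and DESeq2 called 26 and limma voom 0). From 3 against 3 libraries no exact p under 0.100 can be had. Kit and Flt3 were the markers whose groups did not overlap, both higher in Selp high-derived cells, as were 4.79% of all genes. The Kit mean was 1415 ± 57.1 CPM for Selp high-derived cells, against 1069 ± 119 CPM for Selp low-derived cells (SD, n = 3 each), a difference of 0.40 ± 0.16 (unadjusted p = 0.0242, adjusted p = 0.980, exact p = 0.100). The Flt3 mean was 26.9 ± 4.66 CPM for Selp high-derived cells, against 18.0 ± 2.74 CPM for Selp low-derived cells (SD, n = 3 each), a difference of 0.58 ± 0.35 (unadjusted p = 0.118, exact p = 0.100). The other 6 lay between -0.65 ± 0.83 for Cd48 and 0.30 ± 0.21 for Cd34.

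Kit and Flt3 therefore had opposite signs at the 2 stages, lower in Selp high cells before and higher in Selp high-derived cells after transplantation. The difference of the differences was 0.60 ± 0.21 for Kit (unadjusted p = 0.0136, adjusted p = 0.879) and 1.69 ± 0.47 for Flt3, and neither was called. No gene was called in that test by edgeR (874 had an unadjusted p under 0.05, and DESeq2 called 12 and limma voom 0). The comparisons share libraries: each group before transplantation enters the test against its counterpart after it and the test between the cell groups.

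**Figure D5:**
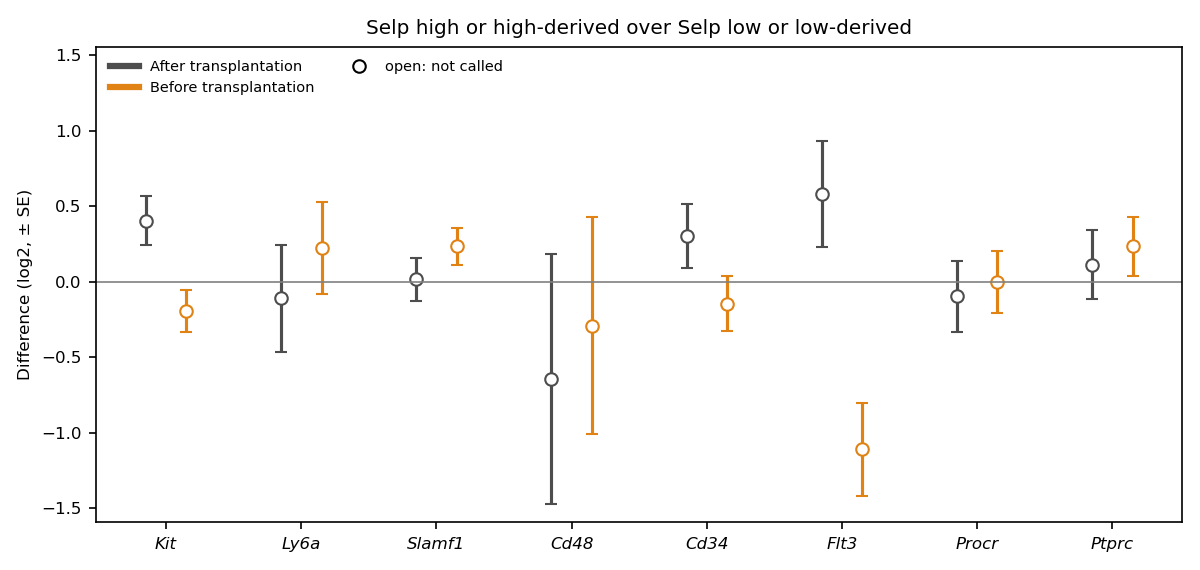
Difference in log2 (± SE) of Selp high-derived over Selp low-derived cells after transplantation and of Selp high over Selp low cells before it, for each marker gene. No point was called; Flt3 is at 0.58 after and -1.11 before transplantation, and Kit at 0.40 after and -0.19 before.

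Within the groups the markers varied along with different genes. For each marker the 3 protein-coding genes with the most similar deviations from the group means over the 14 libraries were taken from 9801 genes whose mean log2 CPM was 3 or more (9802 for Cd48, which is itself below that level). They were Eif4g1, Anapc1 and Gapvd1 for Kit (Pearson r of 0.93, 0.93 and 0.92), and Glul, Sp100 and Apol9b for Ly6a (0.93, 0.92 and 0.92). Slamf1 was closest to Usp3, Etv3 and Dync2li1 (0.91, 0.89 and 0.88), and Cd34 to Cdca5, E2f7 and E2f1 (0.95, 0.94 and 0.94). For Cd48 they were Ly6c2, Clec12a and Nudt4 (0.97, 0.97 and 0.96), the first a gene of the lineage antibodies. Flt3 was closest to Tank, Spns3 and Lyn (0.91, 0.90 and 0.84), Procr to Cracr2b, Pdzk1ip1 and Gimap5 (0.98, 0.95 and 0.94), and Ptprc to Rab14, Fes and Caap1 (0.95, 0.94 and 0.94). These are the highest of many values over libraries that share depth and cell content, and are given as a description.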

How the data were processed

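The values are raw counts of reads per gene, whole numbers for 55450 gene identifiers, deposited by the authors. The submitters' processing notes list STAR 2.7.0d, FastQC 0.11.9, Picard 2.23.0 and the GRCm38 build, while the sources used here do not give an annotation release or counting settings. Per the labels' protocols, polyA RNA of 5000 cells was turned into cDNA with a SMART kit and into libraries with Nextera XT. Of the 3 count columns the one that ignores strand was read, as counts of either strand had a ratio of 0.989 to 0.999. Symbols and positions come from a GENCODE annotation that holds every identifier. Reads that were unmapped (3.35 to 5.06%), multimapping (9.93 to 13.4%), unassigned (3.37 to 5.13%) or ambiguous (4.20 to 4.79%) entered neither library sizes nor tests.

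The fit was made in edgeR 4.0.16 (R 4.3.3), with a mean for each of the 4 groups, TMM factors (0.963 to 1.042), the expression filter at a minimum count of 10 and quasi-likelihood tests. It had 10 residual degrees of freedom and a biological coefficient of variation of 0.322, and was tested on simulated data. Log2 CPM for exact tests and deviations used a prior count of 2. The stage difference is the mean of both groups after minus the mean of both before transplantation. Alternatives were DESeq2 1.42.0, limma 3.58.1 voom, upper-quartile factors, other filters, a robust fit, only the groups compared, a replicate block, and leaving out each library or those that stood apart.

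The 8 markers, the lists and the libraries left out were chosen with earlier results of these data known. Named genes are the 8 markers, Selp, in each of 9 lists up to 4 called genes with the smallest p and the 2 highest, and for each marker the 3 most similar genes. Genes named beyond that rule were chosen after their values were seen. Replicate numbers before transplantation were taken as pairs. The series' design gives 4 mice but no label ties a number to a mouse, so the pairing comes from the data: deviations from the group means correlated across genes at 0.29 to 0.53 for equal numbers, against -0.40 to 0.05 for unequal ones. After it, equal numbers gave -0.05 to 0.02 and pair nothing. The sources used here do not say whether each library after transplantation is a separate recipient, so the p-values describe the spread between these libraries. Counts of any 2 libraries of a group differed by more than sampling noise.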

Additional observations from a re-analysis of the deposited data

Results flagged for a closer look

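In 1 of the 18 groups of 4 libraries checked, 1 library lay far from the other 3. The Cd48 level in Selp low replicate 4 was 21.0 CPM, against 2.87, 4.36 and 3.01 CPM in Selp low replicates 1, 2 and 3, and the gap to its nearest neighbour was 0.917 of the range, above what Dixon's test allows for 4 values. Chance marks about 1 group in 20. In the same library the summed monocyte and macrophage markers were at 365 CPM, against 49.2 to 109 CPM in the other 3, and their part in the Cd48 level was not tested.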

How the results depend on the processing

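Of the 184 alternative values of the 8 markers between stages, 153 kept direction and call, and Slamf1, Cd34 and Flt3 kept both in all 23 each. Ly6a lost its call with limma voom (-0.60, adjusted p = 0.0724) and the robust fit (-0.68, adjusted p = 0.0528), and Ptprc was called with limma voom (0.43, adjusted p = 0.0412). With the replicate block, markers called for Selp high-derived and Selp low-derived cells against their inputs numbered 7 and 6, beside 18.7% and 19.0% of all genes. The numbers pair nothing across stages, and in that fit the libraries of number 4 have no partner after transplantation. With only the groups compared, 5 were called in Selp high-derived against Selp high cells, beside 16.7% of all genes. Without both libraries of number 4, also without Selp low-derived replicate 2, each input had 5, beside 17.9% and 15.4% of all genes. With 1 library left out, the called markers numbered 3 to 6 for the averaged stage, beside 21.1 to 30% of all genes. For Selp low-derived cells they numbered 1 to 4, beside 4.58 to 16.3%. The list counts for the averaged stage, beside the same 21.1 to 30%, were 1 to 2 (LY6), 1 to 2 (CD34), 3 to 6 (CD45) and 0 to 1 (lineage antibodies).

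The list counts also moved for LY6 with limma voom (1), for CD34 with the replicate block (2), for CD45 with limma voom (5), the replicate block (6) and without the libraries that stood apart (5), and for the lineage antibodies to 1 in each of these 3. Of all genes, limma voom called 28%, the replicate block 32.1% and the fit without the libraries that stood apart 31.5%. Signs turned only where the difference in the fit used throughout was smaller than its SE. Some turned values were larger than their own SE, as for Cd48 between Selp high and Selp low cells without Selp low replicate 4 (0.90 ± 0.62). Kit between stages was 0.045 with the replicate block, -0.099 to 0.035 with 1 library left out, 0.041 without number 4 and 0.080 also without Selp low-derived replicate 2. Flt3 in Selp low-derived against Selp low cells was 0.081 with limma voom, 0.015 with upper-quartile factors, 0.012 with the CPM filter, 0.0024 with only the groups compared, 0.17 with the replicate block, 0.019 without number 4 and -0.19 to 0.37 with 1 library left out.

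Between Selp high and Selp low cells, the replicate block changed no call of a marker (Flt3 -1.03 ± 0.18, adjusted p = 0.135). Procr there was 0.00081 with DESeq2, 0.00094 with the CPM filter, 0.020 with limma voom, 0.019 with upper-quartile factors, 0.016 with only the groups compared, 0.034 with the replicate block and -0.16 to 0.16 with 1 library left out, when Ly6a was -0.017 to 0.54 and Cd48 -1.27 to 0.90. Between Selp high-derived and Selp low-derived cells, Slamf1 was -0.0080 with upper-quartile factors, -0.0046 with only the groups compared, -0.0043 with the replicate block and -0.095 to 0.087 with 1 library left out. Without Selp low-derived replicate 2 and number 4, Ly6a was 0.13 and Procr 0.082, and with 1 library left out Ly6a was -0.26 to 0.13 and Procr -0.28 to 0.081. In the difference of differences, Procr was 0.12 without those 3 libraries, and with 1 left out Procr was -0.27 to 0.084, Cd48 -1.54 to 0.62 and Ptprc -0.31 to 0.040. Cd48, with 27 reads in its lowest library, is the marker that depth limits most.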

Other observations

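Ratios of reads within a library, which no scaling between libraries can change, parted the stages for a further pair of markers only in part. There were 0.137 to 0.312 Flt3 reads per Slamf1 read after transplantation (median 0.209) and 0.0224 to 0.144 before it (median 0.0497), with Selp low replicate 2 at 0.144 inside the range after transplantation. Cd34 over Procr reads ran from 0.735 to 2.12 after (median 1.37) and from 0.296 to 0.844 before transplantation (median 0.462), with Selp low-derived replicate 2 the lowest after and Selp low replicate 4 the highest before it.

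Within the groups, deviations of the markers from their group means over the 14 libraries ran together for Cd48 and Ptprc (Pearson r of 0.81) and against each other for Kit and Procr (-0.71) and for Cd48 and Procr (-0.67), while Slamf1 and Flt3 had -0.02. These values share libraries and depth and are a description.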
